A study of Mus musculus with 6 samples.

Results

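Messenger RNA was compared between 2 lines of mouse induced pluripotent stem cells (iPSC) made from tail tip fibroblasts (TTF), one labelled 4N- and the other 4N+. All 22558 gene entries of the deposited table for this pair were used, and 11354 of them reached 1 FPKM (fragments per kilobase of transcript, scaled to library depth) in at least 1 of the 2 libraries and are called measured below. The pair makes up 2 of the 6 samples of the series, with 1 library a line. Ratios are log2 of (FPKM + 1) in the 4N- line over (FPKM + 1) in the 4N+ line, so positive values mean higher in 4N-, and changes of weakly expressed genes are understated. With 1 library a side there is no replicate check and no test: every difference below is between these 2 libraries, and whether it goes with the 4N label cannot be told from them.

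Both TTF lines were labelled as iPSC of a 129Sv/C57 mixed background at passage 25. Per the labels' protocols, all cultures grew on feeder cells with LIF, the cytokine that keeps mouse pluripotent cells undifferentiated, and were split onto gelatin just before lysis to free them of feeders. The names of both lines begin with H2A.X, but the labels give no H2A.X genotype for them, and they do not say which reprogramming factors were used or whether the lines share an animal. The other samples are a 4N- and a 4N+ iPSC line from peritoneal fibroblasts (PF), and an H2A.X Cre knockout and an H2A.X Flox/Flox embryonic stem cell (ESC) culture, also at passage 25 and on the same background.

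The meaning of 4N+ and 4N- is not spelled out in the labels. From knowledge outside them, the terms are read as the outcome of tetraploid complementation, in which pluripotent cells are injected into tetraploid host blastocysts whose own cells contribute mainly to extraembryonic tissue, so that a 4N+ line can form the embryo proper. The imprinted Dlk1-Dio3 region, known from earlier work for its silencing in many mouse iPSC lines, expresses long noncoding RNAs (Meg3, Rian and Mirg), small nucleolar RNAs and a large set of miRNAs from the maternal chromosome, and protein genes (Dlk1, Rtl1, Dio3) from the paternal one. Mouse pluripotent cultures also hold rare cells in a state resembling the 2-cell embryo, which transcribe Zscan4, Tcstv and Usp17-like (Dub) genes.

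The Dlk1-Dio3 miRNAs are shown first, because their region also holds Meg3 and Rian. These 2 RNAs had the largest ratios of either sign among measured entries other than small RNA genes. Between the start of Meg3 and the end of Mirg, 57 entries, all miRNA genes, were counted as small RNA genes by name pattern. Of these, 5 were above 0 in the 4N+ library and none in the 4N- library. AF357355 and AF357359, within Rian, fall outside that pattern and were at 0 in both TTF libraries. Over all small RNA entries, 156 reached 1 FPKM in 4N+ and 128 in 4N-. Of those past 2-fold, 38 lower in 4N- and 10 higher were listed at 0 in 1 library. Of the 57 entries, 55 matched the RefSeq miRNA table (GRCm38.p6), which gives them 101 mature sequences with 94 different seeds (bases 2 to 8, in capitals below). The 10 mature sequences of the 5 entries, all on the plus strand of chromosome 12, were read from that table.
miR-3070-5p, chr12:109588608-109588630: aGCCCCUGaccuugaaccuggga
miR-3070-2-3p, chr12:109588648-109588669: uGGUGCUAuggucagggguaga
miR-1193-5p, chr12:109715716-109715735: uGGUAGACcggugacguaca
miR-1193-3p, chr12:109715750-109715770: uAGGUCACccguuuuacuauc
miR-654-5p, chr12:109723235-109723256: uGGUAAGCugcagaacaugugu
miR-654-3p, chr12:109723270-109723291: uAUGUCUGcugaccaucaccuu
miR-134-5p, chr12:109734145-109734166: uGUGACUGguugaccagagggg
miR-134-3p, chr12:109734184-109734203: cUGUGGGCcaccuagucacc
miR-409-5p, chr12:109743172-109743194: aGGUUACCcgagcaacuuugcau
miR-409-3p, chr12:109743204-109743225: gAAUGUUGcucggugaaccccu
Among the 101 mature sequences of the region, 7 seeds were shared by sequences of different names. The seed GGUAGAC of miR-1193-5p was also that of miR-379-5p, and the seed AGGUCAC of miR-1193-3p was also that of miR-370-5p. The mRNA libraries measured longer RNA fragments at these hairpins and not the mature miRNAs. Of the entries shown, only Mir409 lies within the listed span of Meg3, Rian or Mirg. Which RNA the fragments at the others came from was not tested.

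The promoter of Meg3 is shown because its RNA, with Rian and Mirg, separated the lines. RefSeq (GRCm38.p6) gives 2 starts, and the 250 bases before the first, on the plus strand, hold 10 CG dinucleotides, in capitals.
Meg3, chr12:109540746-109540995: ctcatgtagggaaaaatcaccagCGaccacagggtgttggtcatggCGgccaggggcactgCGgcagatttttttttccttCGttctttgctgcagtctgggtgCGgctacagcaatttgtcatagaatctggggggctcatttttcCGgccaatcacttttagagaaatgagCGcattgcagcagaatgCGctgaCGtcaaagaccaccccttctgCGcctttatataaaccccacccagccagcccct
Of 32851 promoter windows of the same length, 37.8% held at least 10 CG dinucleotides, and the median was 6. The window held 1 match to TGACGTCA, the cAMP response element (both strands searched, palindromic, no overlap with another motif searched), which starts 57 bases before the gene, and 1.55% of all windows held that motif. The 250 bases before the second Meg3 start held 0 CG dinucleotides. DNA methylation was not measured in this series.

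Before the comparisons, the labelled cell type was checked against marker genes. All 8 pluripotency markers (Pou5f1, Sox2, Nanog, Zfp42, Dppa5a, Esrrb, Tdgf1 and Utf1) were at 1 FPKM or more in both libraries, with a summed level of 2676 FPKM in 4N- and 2781 FPKM in 4N+. Of 10 fibroblast or feeder markers 2 reached 1 FPKM in each library, with a summed level of 9.0 FPKM in 4N- and 7.93 FPKM in 4N+, and Lum was at 0 in both. No macrophage marker of 4 reached 1 FPKM. Of 5 trophoblast markers 3 reached it in each library, with sums of 53.5 and 38.5 FPKM in 4N- and 4N+, and of 5 extraembryonic endoderm markers 3 did, with sums of 80.9 and 82.6 FPKM. In bulk RNA, a larger share of cells of a type and more RNA per cell cannot be told apart. Effective depth, recovered from intronless receptor genes, was 61180400 fragments for 4N- and 59154700 for 4N+, so a 2000 bp transcript at 1 FPKM rested on 110 and 106 fragments.

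The 2 TTF lines were close to each other. Among 7193 genes that reached 5 FPKM in each library the median ratio was 0.01, and the middle 95% of their ratios lay between -0.31 and 0.33. The same range in the PF pair, over 7184 genes was -0.66 to 0.42, around a median of -0.17. Of the measured genes 5689 (50.1%) were higher in 4N- and 5665 lower. Across measured genes, which are not independent replicates, Pearson's r of the log2(FPKM + 1) values was 0.975 in the TTF pair and 0.955 in the PF pair. At least 2-fold higher in 4N- were 21 entries, 0.185% of those measured, and at least 2-fold lower were 64, or 0.564%. Of these, 15 and 52 were small RNA genes, leaving 6 other entries higher and 12 lower. At 1.5-fold, 94 entries (0.828%) were higher and 103 (0.907%) lower, of which 58 and 46 were not small RNA genes. When each ratio was set against the median of genes of like transcript length, an alternative chosen after seeing the data that leaves out small RNA genes, the 1.5-fold counts were 36 higher and 59 lower.

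The authors' deposited table calls 43 of 14289 genes tested in this pair: 17 higher in 4N- (0.119%) and 26 lower (0.182%), none of them a small RNA gene. Its p-values come from 1 library a side and so compare the libraries, not the conditions. Of the 43 genes called in the authors' deposited table, 36 were past 1.5-fold and 7 were below 1 FPKM in both libraries. The plot of the 4N- against the 4N+ line shows where the named genes lie in this distribution.

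**Figure D1:**
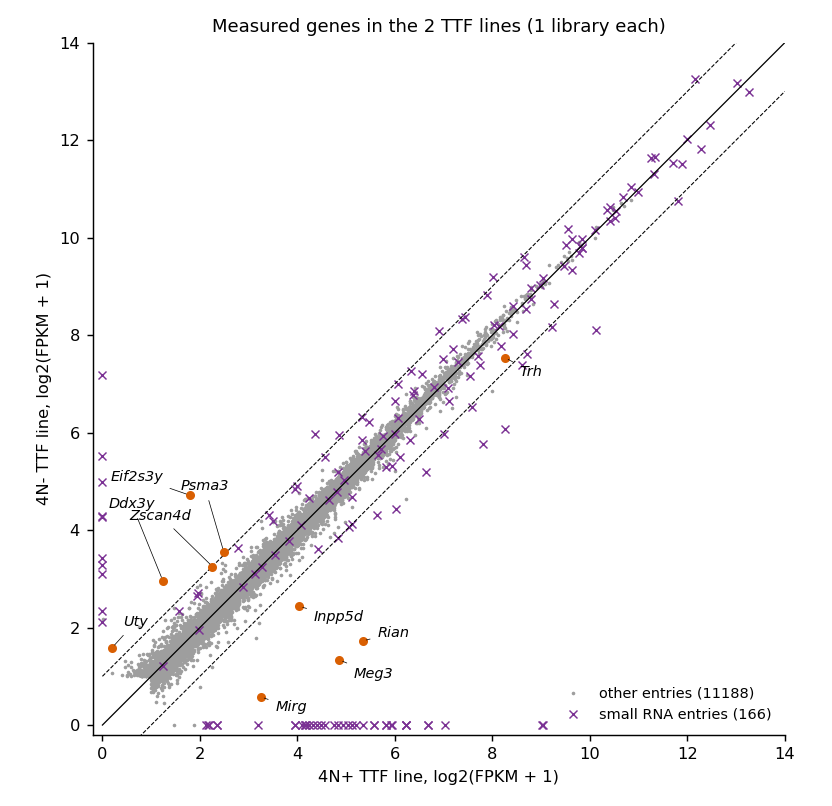
Level of each measured gene in the 4N+ TTF line (x axis) and the 4N- TTF line (y axis), both in log2(FPKM + 1), 1 library each; the solid line marks equality and the dashed lines 2-fold differences. Most of the 11188 entries that are not small RNA genes (grey) lie between the dashed lines, with Meg3, Rian, Mirg and Inpp5d below and Eif2s3y, Ddx3y and Uty above, while the 166 small RNA entries (crosses) scatter widely and many lie at 0 in 1 library.

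The long noncoding RNAs of the Dlk1-Dio3 region were far lower in the 4N- line and were still detected there. Meg3, a noncoding RNA of the maternal chromosome (chromosome 12, 110779206 to 110809939, mm9), was at 1.52 FPKM in 4N- and 28.0 FPKM in 4N+. Rian, the host of small nucleolar RNAs and miRNAs, was at 2.31 and 39.5 FPKM. Mirg, the host of a miRNA cluster, was at 0.493 and 8.51 FPKM. The 4N- line thus held 5.44% of the 4N+ level of Meg3, 5.84% of that of Rian and 5.79% of that of Mirg, and the ratios on the log2(FPKM + 1) scale were -3.52, -3.61 and -2.67. All 3 are called in the authors' deposited table with a q-value listed as 0.

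The same RNAs differed between the PF lines in the same direction and with a lower residual level. Meg3 was at 0.188 FPKM in 4N- PF and 44.1 FPKM in 4N+ PF, Rian at 0.200 and 58.1 FPKM, and Mirg at 0.0411 and 8.64 FPKM. The 4N- PF line held 0.426% of the 4N+ PF level of Meg3, 0.345% of that of Rian and 0.476% of that of Mirg. In the ESC cultures Meg3 was at 0.251 FPKM (knockout) and 0.202 FPKM (Flox/Flox), Rian at 0.349 and 0.25 FPKM, and Mirg at 0.0701 and 0.0733 FPKM. Of the 6 libraries the 2 labelled 4N+ were high, and 4N- TTF stood above the other 3 low libraries for each of the 3 RNAs. These levels come from 3 tables that were probably scaled separately.

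Among other transcripts of the region, those at the Rtl1 locus were also lower in 4N-, at low levels. Dlk1 and Dio3 were low in both lines and differed little. Rtl1, a retrotransposon-derived gene of the paternal chromosome, was at 0.0252 FPKM in 4N- and 0.223 FPKM in 4N+, and it is called in the authors' deposited table (q = 0.00101). The entry 6430411K18Rik, at the same locus, was at 0.0625 and 0.639 FPKM. Since strand use is not stated, reads of these 2 entries, and of the noncoding RNA that runs antisense to Rtl1, cannot be told apart. Dlk1, a membrane protein of the Notch ligand family, was at 0.304 and 0.374 FPKM, and Dio3, the thyroid hormone deiodinase at the far end, at 0.658 and 0.610 FPKM, so neither reached 1 FPKM. Of the 57 miRNA entries, the 5 above 0 in 4N+ were Mir409 (59.2 FPKM), Mir134 (55.5), Mir3070b (32.0), Mir654 (21.4) and Mir1193 (4.09), each listed at 0 in 4N-. None of the 5 is called in the authors' deposited table. For PF, 0 and 3 of the 57 were above 0 in 4N- and 4N+, and in both ESC cultures 0. Outside the 57, AF357355 was listed at 0 in 4N- PF and 907 FPKM in 4N+ PF. The hairpins of the 5 miRNA entries above 0 in 4N+ TTF are 71 to 121 bp long. That is below the 204 bp that the deposited values take off each transcript length, so the size of such FPKM cannot be read as a level.

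Genes flanking the region were close to level. Of the 13 flanking genes listed there, 11 were measured, 4 higher and 7 lower, with a median ratio of -0.05 and none past 1.5-fold. Ppp2r5c, a phosphatase subunit, was at 44.5 and 51.6 FPKM in 4N- and 4N+. Wars, the tryptophanyl-tRNA synthetase, was at 34.9 and 32.6 FPKM. Yy1, a zinc finger factor, was at 31.6 and 31.2 FPKM.

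**Figure D2:**
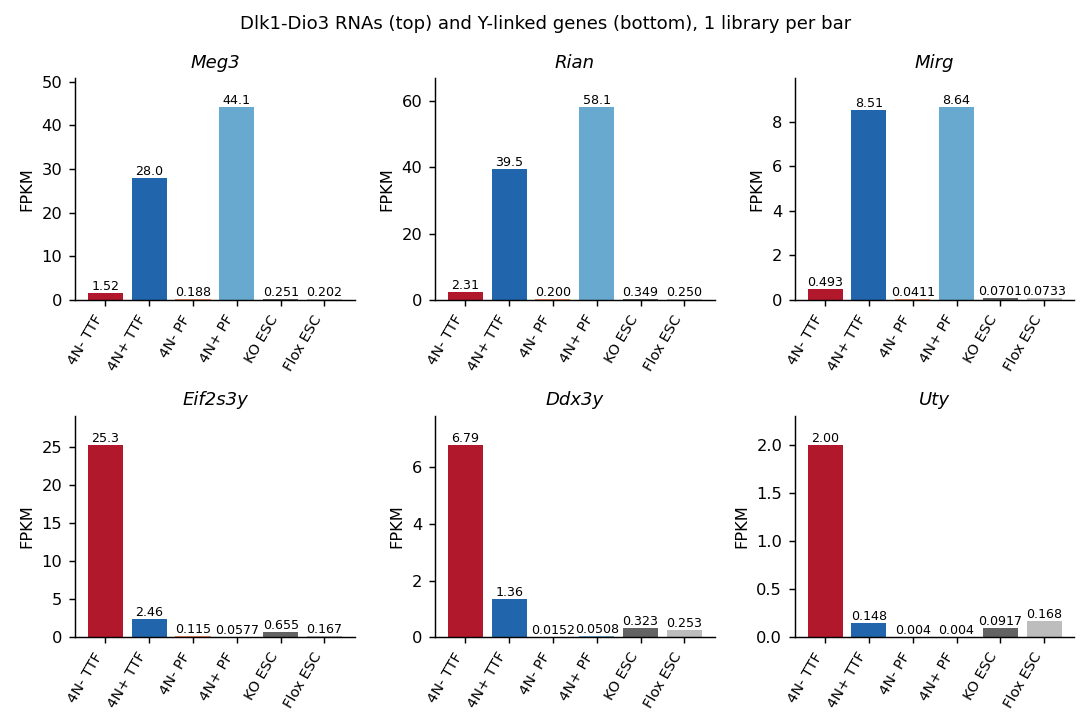
FPKM of Meg3, Rian and Mirg (top) and of the Y-linked genes Eif2s3y, Ddx3y and Uty (bottom) in each of the 6 libraries, 1 library a bar, with no error bars because no group has a second library. The 3 Dlk1-Dio3 RNAs stand high in the 4N+ lines of both parental cell types, and the 3 Y-linked genes stand high in the 4N- TTF line.

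Imprinted genes elsewhere in the genome did not follow the Dlk1-Dio3 RNAs as a group. Of 49 in the table, 36 were measured, with 17 higher, 19 lower, a median ratio of 0.00, 1 past 1.5-fold higher and 2 lower. Peg3, a paternally expressed zinc finger gene, was at 8.99 FPKM in 4N- and 4.46 in 4N+, a ratio of 0.87, and is called in the authors' deposited table (q = 0.000172). Peg3 in the PF pair was at 36.3 and 20.9 FPKM. Its antisense partner Apeg3, at the same locus, was at 2.36 and 1.06 FPKM in the TTF pair and cannot be told apart from Peg3 without strand.

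Grb10, an adaptor that restrains growth factor signalling, was lower in 4N-, at 13.4 against 24.3 FPKM, and is called in the authors' deposited table (q = 0.0112). Nnat, a paternally expressed small membrane protein, was at 2.28 and 4.93 FPKM and is not called in the authors' deposited table. Mest was at 3.15 and 1.86 FPKM, and Igf2, the fetal growth factor, at 16.3 and 11.3 FPKM. H19, the noncoding RNA beside Igf2, was at 6.73 and 4.59 FPKM. The last 3 were higher in 4N- by less than 1.5-fold on the log2(FPKM + 1) scale.

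Y-linked genes were higher in the 4N- line and were not absent from the 4N+ line. Eif2s3y, a translation initiation factor subunit, was at 25.3 FPKM in 4N- and 2.46 FPKM in 4N+. Ddx3y, an RNA helicase, was at 6.79 and 1.36 FPKM. Uty, a histone demethylase family member, was at 2.0 and 0.148 FPKM. These are 3 of the 6 entries other than small RNA genes that were 2-fold higher, and they stood 10.3-fold, 4.99-fold and 13.5-fold above their 4N+ FPKM. All 3 are called in the authors' deposited table with a q-value listed as 0, as is Zfy1 (0.291 and 0.0524 FPKM, q = 0.0103).

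The remaining Y genes were scarce. Kdm5d was at 0.0403 FPKM in 4N- and 0.00963 in 4N+, and Usp9y at 0.122 and 0.0514. Of the 12 Y entries, 3 were measured. In the other 4 libraries Eif2s3y lay between 0.0577 FPKM (4N+ PF) and 0.655 FPKM (knockout ESC), Ddx3y between 0.0152 FPKM (4N- PF) and 0.323 FPKM (knockout ESC), and Uty between 0.00448 FPKM (both PF lines) and 0.168 FPKM (Flox/Flox ESC). Only the 4N- TTF line, among the 6, expressed all 3 above 1 FPKM.

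The X-linked partners were level. Eif2s3x was at 7.12 FPKM in 4N- and 6.44 in 4N+, Ddx3x at 194 and 187, Kdm5c at 20.9 and 22.0, and Kdm6a, the partner of Uty, at 16.4 and 15.9. The 8 measured X-linked partners had a median ratio of -0.03, with 4 higher and 4 lower. Xist, the RNA that coats an inactive X chromosome, was at 0.38 and 0.477 FPKM.

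Genes of the 2-cell-like state were higher in the 4N- line. Over the 44 listed genes in the table, measured or not, 38 were higher in 4N-, 4 were lower and 2 were equal. The share over all entries, measured or not, is not given here. Of the 28 measured, 25 (89.3%) were higher, beside 50.1% of all measured genes. By at least 1.5-fold, 13 were higher and 0 lower, and the median ratio of the 28 was 0.56. The summed level of the list was 139 FPKM in 4N- and 92.0 FPKM in 4N+. Of the 28, 25 reached 1 FPKM in 4N+ too, and the other 3 were measured only through the 4N- library. Zscan4d and Gm8300 are called in the authors' deposited table (q = 0.00179 and q = 0.0250).

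Zscan4d, a zinc finger gene linked to telomere maintenance, was at 8.53 FPKM in 4N- and 3.78 in 4N+. Its measured paralogs were lower in level and had smaller ratios: Zscan4a was at 4.64 and 2.68 FPKM, Zscan4c at 3.58 and 1.79, Zscan4e at 2.96 and 1.49, Zscan4f at 2.26 and 1.11, and Zscan4b at 1.10 and 0.698, the last below 1.5-fold on the log2(FPKM + 1) scale. Tcstv1 was at 16.8 and 10.4 FPKM, and Tcstv3 at 17.2 and 11.5. The deubiquitinase genes Dub1a (3.42 and 1.64 FPKM) and Usp17l5 (2.52 and 1.32 FPKM) also had the higher value in 4N-. Arg2, the mitochondrial arginase, was at 4.28 and 1.77 FPKM.

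Members that were lower in 4N- were Usp26 (3.41 and 4.66 FPKM), Pramef12 (9.80 and 11.5 FPKM) and Zfp750 (1.97 and 2.01 FPKM). Of the 28 measured genes, 20 have a near-identical copy among annotated transcripts, and for these, all Zscan4 genes included, the split of reads between copies is uncertain. The 8 without such a copy had 5 higher and a median ratio of 0.27. These 28 genes had in the PF pair a median ratio of 0.39, with 3 lower in 4N-. Most of the 28 were below 1 FPKM in both PF libraries and so would not count as measured there. Set against genes of like length, 25 of 28 stayed above and the median was 0.51.

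The Zscan4 promoters are shown because these genes differed together. In the 250 bases before the start (RefSeq, GRCm38.p6), both hold TATAAAA, in capitals.
Zscan4c, chr7:11005495-11005744, plus strand: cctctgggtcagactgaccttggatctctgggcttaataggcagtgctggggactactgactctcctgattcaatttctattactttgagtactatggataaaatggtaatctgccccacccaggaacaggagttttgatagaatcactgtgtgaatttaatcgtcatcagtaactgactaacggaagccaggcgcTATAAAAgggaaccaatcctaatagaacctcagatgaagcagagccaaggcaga
Zscan4d, chr7:11166149-11166398, minus strand: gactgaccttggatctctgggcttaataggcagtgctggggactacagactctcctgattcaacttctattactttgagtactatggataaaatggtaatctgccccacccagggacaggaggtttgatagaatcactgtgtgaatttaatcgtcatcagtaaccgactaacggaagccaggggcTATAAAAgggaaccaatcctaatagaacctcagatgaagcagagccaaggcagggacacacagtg
In 232 of 238 aligned columns these windows were identical, and those of Zscan4c and Zscan4f 99.6% over 227 columns. The motif TATAAAA (both strands) was also found once in the windows of Zscan4b and Zscan4f, while 4.98% of all 32851 windows held it.

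**Figure D3:**
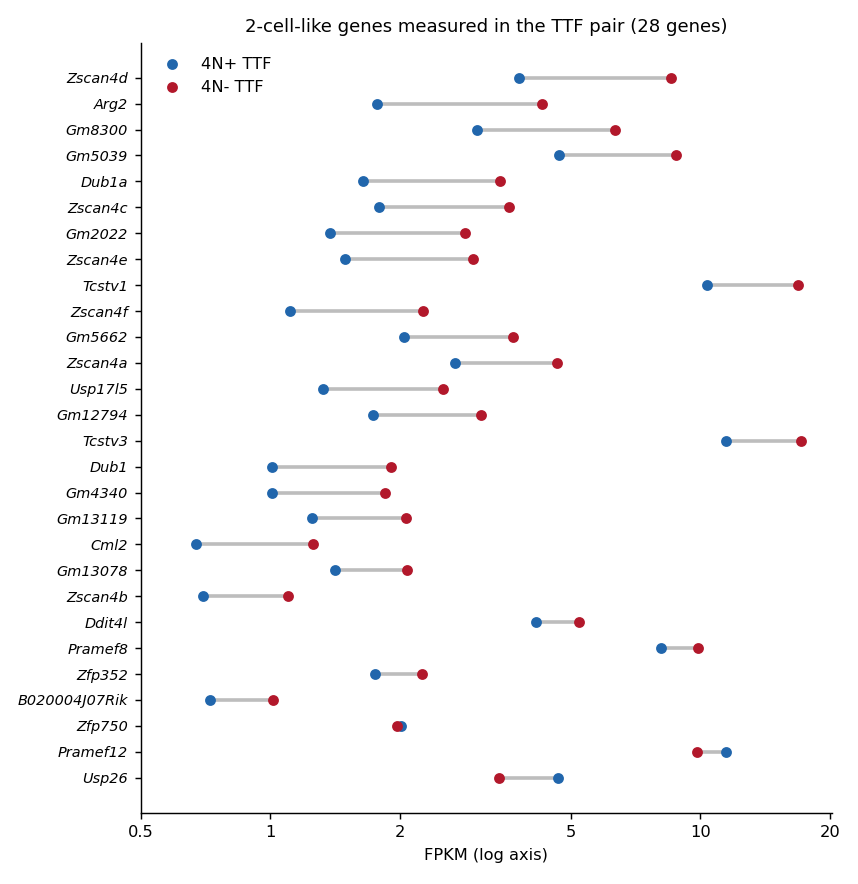
FPKM (log axis) of the 28 measured 2-cell-like genes in the 4N+ (blue) and 4N- (red) TTF lines, 1 library each, ordered by their log2(FPKM + 1) ratio with the highest at the top. The red point lies to the right for 25 genes and to the left for Usp26, Pramef12 and Zfp750.

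Some extraembryonic genes were also higher in 4N-, at low levels. Among 41 trophoblast genes in the table, measured or not, 27 were higher and 12 lower. Of the 20 measured, 12 were higher with a median ratio of 0.30, 4 by at least 1.5-fold and 0 lower by that much, and 2 of the 20, Ctsj and Fgfr2, were measured only through the 4N- library. Ctsj, a placental cathepsin, was at 1.5 FPKM in 4N- and 0.38 in 4N+ and is called in the authors' deposited table (q = 0.000752). The homeobox gene Rhox6 was at 17.1 and 10.6 FPKM, Esx1 at 3.03 and 1.67, and Sct, the hormone secretin, at 5.45 and 3.07. Cdx2, the trophectoderm regulator, stayed at 0.101 and 0.0523 FPKM.

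Of the 34 extraembryonic endoderm genes present, 22 were higher and 11 lower, and of 17 measured 11 were higher, with a median ratio of 0.16, 1 of them (Pth1r) measured only through the 4N- library. Spink3, a protease inhibitor, was at 15.4 FPKM in 4N- and 8.61 in 4N+. Srgn, a proteoglycan core protein, was at 7.64 and 4.38 FPKM. Dab2, an endocytic adaptor, was at 4.31 and 2.45 FPKM. These 3 were past 1.5-fold and none is called in the authors' deposited table, while Sparc, a basement membrane protein and the highest marker of this lineage, was at 73.5 and 78.1 FPKM.

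Pluripotency genes were level as a group. Of the 39 present, 38 were measured, 20 higher and 18 lower, with a median ratio of 0.00 and 1 past 1.5-fold. Pou5f1 was at 454 FPKM in 4N- and 424 in 4N+. The single member past 1.5-fold was Gbx2, a homeobox gene downstream of LIF signalling, at 5.55 and 3.06 FPKM. Prdm14, a regulator of the naive state, was at 11.9 and 15.1 FPKM, and Utf1 at 39.4 and 32.5 FPKM. The 15 measured genes of primed pluripotency and early germ layers had a median ratio of 0.08, and the 9 measured neural genes one of -0.04, with none past 1.5-fold in either list.

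Of 27 measured germline genes 10 were higher and 17 lower, with a median ratio of -0.06. Smc1b, a meiotic cohesin subunit, was the only member of the list past 1.5-fold, at 4.50 FPKM in 4N- and 8.37 in 4N+, and is called in the authors' deposited table (q = 0.0130). Dazl, an RNA-binding protein of germ cells, was at 11.4 and 15.8 FPKM. Stra8, the meiotic entry gene induced by retinoic acid, is not in this list and was past 1.5-fold higher in 4N-, at 36.6 and 21.9 FPKM and is called (q = 0.0497 in the authors' deposited table).

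Of 14 measured fibroblast genes, 7 were higher and 7 lower, with a median ratio of -0.04, and Ly6a was measured only through the 4N- library. Ly6a, the surface antigen Sca-1, was at 3.01 FPKM in 4N- and 0.677 in 4N+ and is called in the authors' deposited table (q = 6.93e-05). Fn1, fibronectin, was at 60.8 and 83.9 FPKM, and Acta2, smooth muscle actin, at 5.02 and 3.73 FPKM. The summed level of the 39 fibroblast genes in the table was 220 FPKM in 4N- and 252 FPKM in 4N+.

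H2A.X, the histone variant phosphorylated at DNA double-strand breaks that gives the series its theme, was expressed in both TTF lines. H2afx, its gene, was at 65.3 FPKM in 4N- and 70.9 in 4N+, beside 6.18 in the knockout ESC and 34.9 in the Flox/Flox ESC. It has no introns, and its values correspond to 4617 and 4843 fragments. The 4N- level was 92.2% of the 4N+ level, with an exact binomial 95% interval of 88.5% to 96.0% that covers counting error between these libraries only. The 12 measured histone variant genes had a median ratio of 0.03, and H2afz had the highest ratio, at 23.8 and 18.2 FPKM.

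DNA damage genes showed no shift as a group. The 41 genes of damage response and repair had a median ratio of -0.03, with 17 higher and 24 lower and none past 1.5-fold. Rad50, a subunit of the break-sensing MRN complex, had the lowest ratio at 12.1 FPKM in 4N- and 15.9 in 4N+, and Rad52, a recombination mediator, the highest at 5.84 and 4.51. The 24 measured p53 target genes had a median of 0.02. Trp53 itself was at 111 and 97.8 FPKM, and Aen, a p53-induced nuclease, at 12.2 and 9.51.

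DNA and histone methylation genes were also close to level, with a median ratio of 0.01 over 32 measured genes and none past 1.5-fold. The de novo methyltransferases Dnmt3a (26.1 FPKM in 4N- and 21.1 in 4N+) and Dnmt3b (58.3 and 47.4) were at the upper end. Tet1 (49.9 and 59.7 FPKM) and Tet2 (20.3 and 24.5), which oxidise methylcytosine, were at the lower end. Among 39 measured cell cycle genes 26 were higher, with a median of 0.05. Myc was the one past 1.5-fold, at 8.21 and 4.57 FPKM, and it is not called in the authors' deposited table (q = 0.0933).

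Glycolysis and lipid synthesis genes leaned lower in 4N-. Of 24 measured glycolysis and hypoxia genes 20 were lower, with a median ratio of -0.12. Ldhb, a lactate dehydrogenase subunit, was at 35.9 FPKM in 4N- and 63.5 in 4N+, the only member past 1.5-fold, and is called in the authors' deposited table (q = 0.00405). Ldha, the other subunit, was at 739 and 755 FPKM. Ldhb in the PF pair was also lower in 4N-, at 67.3 against 164 FPKM. It has a near-identical copy, Gm5514, among annotated transcripts, so its values are less certain. Of 31 measured cholesterol and fatty acid synthesis genes 24 were lower, with a median of -0.11, and the desaturase Scd1 was at 8.89 and 13.5 FPKM. In the stress lists, the integrated stress response had a median of -0.07, with Chac1 at 2.97 and 5.75 FPKM, and heat shock and oxidative stress one of 0.10, with Nqo1 at 20.4 and 14.8 FPKM.

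Genes of large protein complexes were slightly higher in 4N- almost throughout. All 36 respiratory complex I subunit genes were higher, with a median ratio of 0.14 and a largest ratio of 0.37. Of 71 measured mitochondrial ribosomal protein genes 64 were higher (median 0.15), of 38 proteasome subunit genes 35 (median 0.14), and of 77 cytosolic ribosomal protein genes 60 (median 0.10). In the PF pair the same genes had medians of -0.16, -0.32, -0.33 and -0.06. These PF ratios were not centred, and the median over 7184 genes that reached 5 FPKM in both PF libraries was -0.17.

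These genes have short transcripts, and the ratio varied with transcript length over all genes of the TTF pair. The median ratio was 0.13 for 538 genes with a longest transcript of up to 1000 bp, 0.08 for 1905 genes up to 2000 bp, 0.02 for 4573 genes up to 4000 bp and -0.05 for 4052 longer ones. The share of genes that were higher went from 70.6% to 33.7% over these classes. In the PF pair the medians were -0.11, -0.15, -0.14 and -0.12. Set against genes of like length, 28 of 36 complex I genes, 58 of 71 mitochondrial ribosomal, 33 of 38 proteasome and 40 of 77 cytosolic ribosomal protein genes lay above, with medians of 0.08, 0.12, 0.08 and 0.01.

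Replication-dependent histone genes had a median ratio of 0.34 over 15 measured genes, 13 higher, and 0.21 against genes of like length, and 4 of the 15 were measured only through the 4N- library. Their transcripts mostly lack a poly(A) tail, and 5 of 7 members searched have near-identical copies, so their levels in an mRNA library are uncertain. Hist1h2bj was at 3.87 FPKM in 4N- and 2.10 in 4N+. Over all 61 such genes, 32 were higher, 21 lower and 8 equal.

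The remaining lists were close to level or held few measured genes. The median ratio was 0.05 for 16 immediate early genes, 0.02 for 13 telomere genes, -0.03 for 17 interferon and MHC class I genes and 0.02 for 15 reference genes, with none past 1.5-fold. Zinc finger Zfp genes had a median of -0.03 over 299 measured genes, of which 178 were lower. Of the 16 macrophage genes 3 were measured, 1 higher and 2 lower, with Cd68, a lysosomal protein, at 9.98 FPKM in 4N- and 16.0 in 4N+. Of the 39 Hox genes, which pattern the body axis, 1 was measured, and over all of them 29 were higher and 10 lower, with a summed level of 7.93 FPKM in 4N- and 5.63 in 4N+. Among the Rhox cluster genes other than Rhox6 and Rhox9 (both counted with the trophoblast genes and both higher in 4N-), the Prame family and the olfactory and vomeronasal receptors, 3 genes each were measured, with 2, 2 and 0 of them higher.

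**Figure D4:**
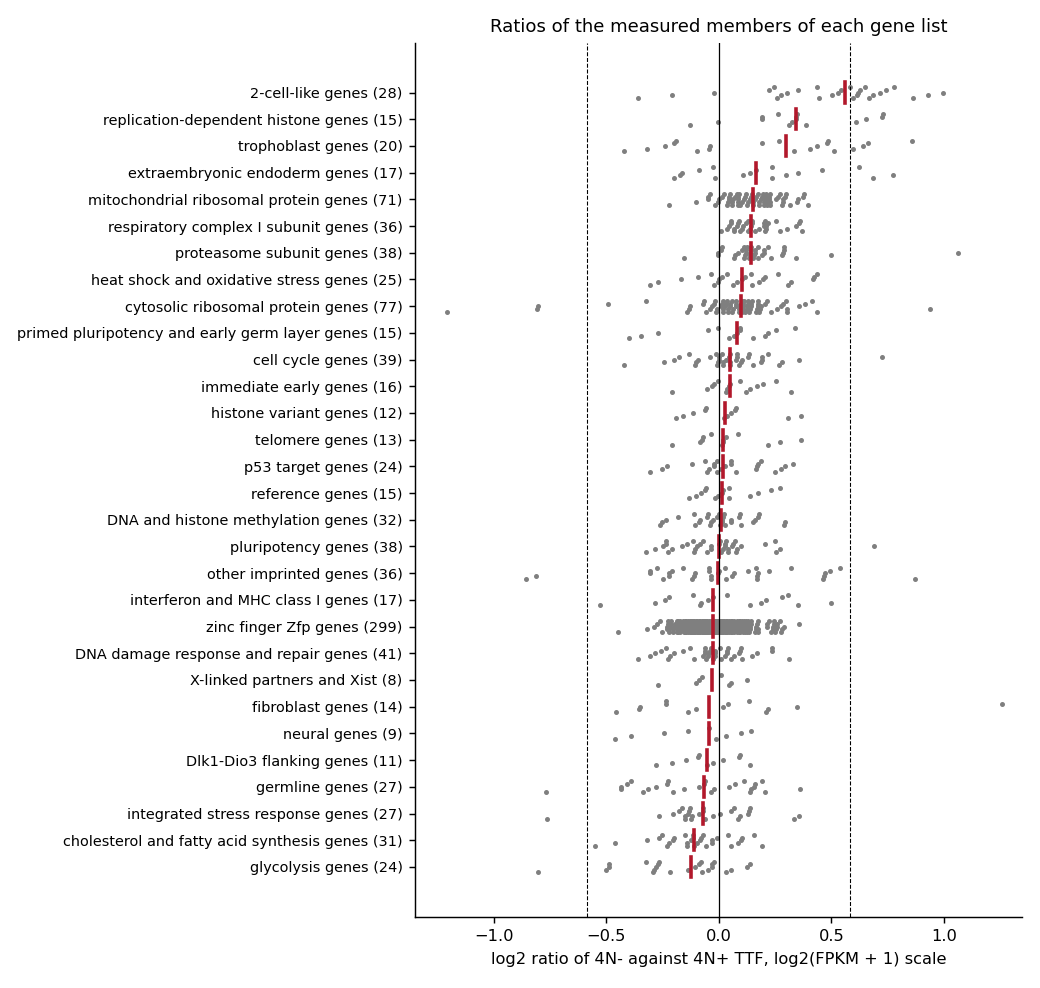
Log2(FPKM + 1) ratio of 4N- against 4N+ TTF (x axis) for each measured member (grey points) of the gene lists with at least 8 measured members, the number in parentheses; red bars are list medians and dashed lines mark 1.5-fold. The 2-cell-like list has the highest median, 0.56, glycolysis the lowest, -0.12, and most other medians lie close to 0.

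The largest remaining differences were in single genes of varied function. Lower in 4N- was Inpp5d, the lipid phosphatase SHIP1, at 4.40 FPKM against 15.4 (authors' deposited table q = 3.08e-10), and in the PF pair it was at 16.0 and 25.0. Pla2g7, a secreted phospholipase, was at 2.45 and 7.84 FPKM (authors' deposited table q = 3.07e-07), with 1.13 and 1.30 in the PF pair. Nrp2, a semaphorin and VEGF co-receptor, was at 3.27 and 8.25 FPKM (authors' deposited table q = 2.42e-06), with 2.39 and 4.33 in the PF pair. Among strongly expressed genes, Trh, the precursor of thyrotropin-releasing hormone, was at 185 and 305 FPKM in the TTF pair and at 25.5 and 116 in the PF pair, lower in 4N- in both.

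Other genes lower in 4N- and called in the authors' deposited table were A2m, a protease inhibitor (14.4 and 25.8 FPKM), Ephx2, an epoxide hydrolase (15.8 and 27.5), Igf2bp2, an mRNA-binding protein (21.2 and 34), and Ly75, an endocytic receptor (4.14 and 7.70). Malat1, a nuclear noncoding RNA, was at 90.1 and 144 FPKM. Prdm1, the regulator of primordial germ cell specification, was at 0.814 and 1.89 FPKM, and both are called in the authors' deposited table.

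Higher in 4N- were Psma3, a proteasome subunit, at 10.7 against 4.62 FPKM, and Rps10, a ribosomal protein, at 17.3 against 8.52, and both were also higher in 4N- of the PF pair (8.06 against 3.98, and 19.4 against 7.20). Both have near-identical copies, as do Rpl3 (16.9 and 30.4 FPKM), Rpl26 (0.724 and 2.99) and Gm12191 (115 and 255), whose ratios went the other way, so these values are uncertain. Car2, a carbonic anhydrase, was at 26 and 15.4 FPKM, called in the authors' deposited table (q = 0.0497). Dapk1, a death-associated kinase, was at 6.64 and 3.69 FPKM, and Gabarapl2, an autophagy factor with near-identical copies, at 17.2 and 10.2, neither of them called in the authors' deposited table.

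Of the 104 entries other than small RNA genes past 1.5-fold in the TTF pair, 68 were measured in the PF pair, where 20 were past 1.5-fold the same way and 9 the opposite way. Meg3, Rian, Mirg, Nrp2, Ldhb, Trh, Peg3, Rps10, Psma3 and Tcstv1 were among the 20. Of 11606 entries measured in the PF pair, 30 other than small RNA genes were past 2-fold higher and 78 lower. The PF ratios also spread more widely, around a median of -0.17. The share of all genes past 1.5-fold in the PF pair is not given here, so the 20 and 9 cannot be read as agreement between the pairs. A further 3 entries past 2-fold, picked out after their values were seen, were near 0 in 1 library: Rangrf (3.49 and 0.00249 FPKM), Gm4535 (0.000175 and 2.67) and Pisd-ps1 (0.000795 and 1.77).

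Small RNA genes made up most of the entries past 2-fold. Of 730 such entries, 166 were measured, and 36 were at least 1.5-fold higher and 57 lower. Of those past 2-fold, 10 of the 15 higher and 38 of the 52 lower were listed at 0 in 1 library. Among those with high listed values were small nucleolar RNAs, which guide the modification of ribosomal RNA: Snord70 was listed at 9734 FPKM in 4N- and 4576 in 4N+, Snord69 at 8176 and 9865, and Snord47 at 9283 and 8273. The median length of small RNA genes of all kinds, over 163 with a length, was 91 bp. That is below the offset of 204 bp, so FPKM of small RNA genes are not comparable with those of longer genes.

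No chromosome other than Y stood apart in the TTF pair. Median ratios of chromosomes 1 to 19 lay between -0.03 and 0.03, and that of the X chromosome was -0.04. In the PF pair they ranged from -0.37 on chromosomes 6 and 11 to 0.24 on chromosome 17.

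**Figure D5:**
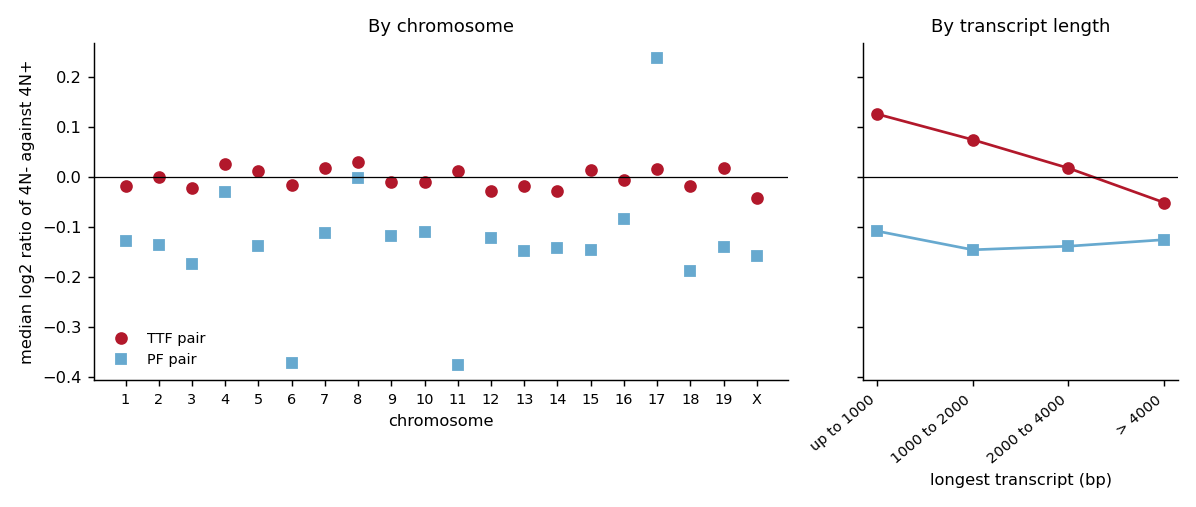
Median log2(FPKM + 1) ratio of 4N- against 4N+ for measured genes of each chromosome (left) and of each class of longest transcript in bp (right), in the TTF pair (red circles) and the PF pair (blue squares). TTF medians stay between -0.04 and 0.03 on chromosomes 1 to 19 and X and go from 0.13 to -0.05 with length, whereas the PF medians range from -0.37 to 0.24 over chromosomes and from -0.15 to -0.11 over length.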

How the data were processed

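One mRNA library per culture was made from total RNA with TruSeq, per the labels' protocols. Reads passed through CASAVA and TopHat2 on mm9, per the submitters' processing notes, while program versions, the quantifier, the annotation and any use of strand were not given in the sources used here. The authors deposited 1 table per pair of cultures, 3 in all, with 2 columns read as FPKM (never negative and not whole) and, per the file headers, p-value and q-value columns with a call. The authors' p-value and q-value columns were only quoted. The table holds 87 entries with several names and 25 turned into dates.

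Ratios were computed in Python 3.11.15 (pandas 2.3.3, numpy 2.4.6, scipy 1.17.1) as log2(FPKM + 1), for genes at 1 FPKM or more in at least 1 of the 2 libraries, and counted past 2-fold and 1.5-fold with no test, since each group has 1 library. The counting step was tested on simulated data. Named genes were the 15 highest and 15 lowest ratios among genes reaching 5 FPKM (clone names, entries with several names and small RNAs left out), every called gene, measured Dlk1-Dio3, Y-linked and 2-cell-like genes, and up to 4 members with the largest ratio and 3 with the highest level of each other list; up to 6 small RNA genes were allowed. Genes outside this rule (markers, further members of the lists, the 5 miRNA entries and partners at a shared locus) were named after their values were seen. The members, the 29 lists (787 genes, 769 in the table) and the 10 lists by name pattern were chosen with earlier results of these data known, and some genes are not reported here.

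Effective depth came from intronless receptor genes: with an offset of 204 bp, all 91 and 95 values of the 4N- and 4N+ library were within 0.05 of whole fragments, of which 47 and 50 were the 1-fragment values used to fit it. The lengths used for spliced genes were not recoverable, so no count test was run. Transcript lengths (98.9% of measured genes without small RNA genes) and near-identical copies (minimap2 2.31, at least 95% identity over 50% of the shorter transcript and 300 aligned bases) are from GENCODE M21, with no coordinates used. Alternatives were other pseudocounts and minimums, centring, leaving out small RNA or clone-named genes and, added after seeing the data, centring within 20 bins of transcript length.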

Additional observations from a re-analysis of the deposited data

Results flagged for a closer look

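The following named genes were past 1.5-fold one way in the TTF pair and past it the other way in the PF pair, on the log2(FPKM + 1) scale of 4N- against 4N+. Each pair has 1 library a side, so these differences between the pairs were not tested. The genes were picked for going opposite ways. Of 104 entries other than small RNA genes past 1.5-fold in the TTF pair, 20 were past it the same way in the PF pair and 9 the opposite way. The share of all genes past 1.5-fold in the PF pair is not given here. PF ratios were not centred and lay around a median of -0.17. Higher in 4N- in the TTF pair and lower in the PF pair were Myc (0.73 and -1.13), Gbx2 (0.69 and -0.97), Rhox6 (0.64 and -1.24) and Lpar6, a lysophosphatidic acid receptor (0.72 and -0.85). Lower in 4N- in the TTF pair and higher in the PF pair were the imprinted genes Grb10 (-0.81 and 1.51) and Nnat (-0.86 and 1.88), the sulfotransferase Sult6b1 (-0.77 and 0.69) and Rpl26 (-1.21 and 0.74), which has near-identical copies.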

How the results depend on the processing

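Counts of genes past a fold depended on the pseudocount and on which entries were kept. With a pseudocount of 0.1, 45 genes were at least 2-fold higher, and 180 higher and 177 lower by 1.5-fold. With a minimum of 5 FPKM, 57 were 1.5-fold higher. Without small RNA genes the counts were 6 higher and 12 lower at 2-fold and 58 and 46 at 1.5-fold; without clone-named and several-name entries as well, 6 and 9, and 42 and 39. Centred within length bins, a choice made after seeing the data, they were 6 and 11, and 36 and 59. The other counts stayed within 1.5 times the reported ones, and no value changed sign where it was reported as past 1.5-fold or, for a median, 0.1. Over the alternatives set at the outset, 233 of 250 list medians, 143 of 146 chromosome medians and 693 of 819 named-gene ratios moved by no more than 0.1, and none reversed. No paired analysis was possible because each group has 1 library, and no library could be left out for the same reason. Depth limits the genes below 1 FPKM most, since 1 FPKM on 2000 bp is about 106 fragments.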
